A study of Macaca mulatta with 10 samples.

Results

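The DNA replication machinery was taken as 49 genes of the origin recognition complex, the helicase and its loaders, the replicative polymerases, the clamp loader, the single-strand binding protein, Okazaki fragment maturation, fork protection and chromatin assembly. Members were found by gene symbol in the table of 26813 assembled loci, and where a symbol named several loci the one with the highest mean count was kept. Of the 49 genes, 44 had a locus of their own and are the members counted throughout. MCM10, POLA1, PCNA and TIMELESS shared a locus with a neighbouring gene and are given apart, and POLD1 was not analysed here.

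The samples were right testes of 10 wild type juvenile rhesus monkeys, sequenced as strand-specific total RNA, with 1 library per animal. The vehicle group held TP07, aged 24 months, TP09, aged 14 months, and TP11, aged 15 months. Gonadotropin, a pulsatile infusion of the pituitary hormones FSH and LH, which act on Sertoli and Leydig cells, was given for 48 h to TP08 (22 months), TP10 (14 months) and TP12 (15 months), and for 96 h to TP15, TP16, TP17 and TP18 (each 14 months). The labels do not give the length of the vehicle infusion. Libraries held 21824233 to 30375928 counts, and no member fell under 99 counts in any of them. Levels are CPM (counts scaled to library size) after TMM scaling between libraries, and values per animal are listed in the order of the names above. Changes are log2 fold changes with their standard error (SE) from edgeR's quasi-likelihood test, called at a Benjamini-Hochberg adjusted p of 0.05 over all loci. All groups are whole testis, so fewer cells of a type and less RNA per cell cannot be told apart.

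Replication origins are licensed in G1, when the origin recognition complex, CDC6 and CDT1 load the MCM2-7 helicase onto DNA. In S phase the kinase CDC7-DBF4 and cyclin-dependent kinases turn the loaded helicase into the active CDC45-MCM-GINS complex, and the polymerases, the clamp and the clamp loader then copy both strands. Many of these genes are transcribed in late G1 under E2F factors. In the juvenile testis the dividing cells are mainly Sertoli cells and spermatogonia.

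Most replication genes were higher after gonadotropin. After 48 h, 27 of the 44 members were higher than in vehicle and 1, ORC4, was lower, where 8.53% of all loci were called higher and 3.67% lower. Every 48 h animal was above every vehicle animal in 32 members and below in 1, a pattern seen upward in 18.1% and downward in 18% of all loci. The median log2 fold change of the members was 0.64, beside -0.07 over all loci. After 96 h, 30 members were higher and 0 were lower, where 10.6% of all loci were called higher and 6.89% lower. At an unadjusted p under 0.05 the edgeR test gave 35 members in either direction at 96 h, and upper-quartile scaling with edgeR called 1 lower, ORC4. The share of all loci was not taken at an unadjusted p, for other tools or for alternative fits, here or later. All 96 h animals were above all vehicle animals in 34 members and below in 0, beside 15.9% and 14.9% of all loci. The median of the members at 96 h was 0.63, beside -0.01 over all loci.

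Loci that stand for a single gene symbol were called higher more often than the whole table: 14.8% at 48 h and 17.2% at 96 h. In 29.2% of these single-symbol loci all 48 h animals were above all vehicle animals, and in 12.8% below. At 96 h the shares were 24.8% and 12.7%. The median log2 fold change of these loci was 0.079 at 48 h and 0.082 at 96 h. The 27 members called at 48 h were all called at 96 h, which also added ORC3, ORC6 and GMNN. The summed level of the 44 members was 1635 to 1852 CPM in vehicle, 2212 to 2647 CPM at 48 h and 2423 to 2682 CPM at 96 h, with no overlap between vehicle and either treated group. Without TP07 and TP08, the animals over 20 months, 2 animals were left on each side and 10 members were called higher at 48 h (CDT1, MCM2, MCM3, MCM4, MCM5, MCM6, POLD2, RFC2, FEN1 and WDHD1), while the median log2 fold change was 0.58. With all animals, edgeR called 27 higher with age in months as a covariate and 28 with age class as a block. The shares of all loci called in these alternative fits were not taken. The parts of age and of the smaller number of animals in the lower count were not tested.

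**Figure D1:**
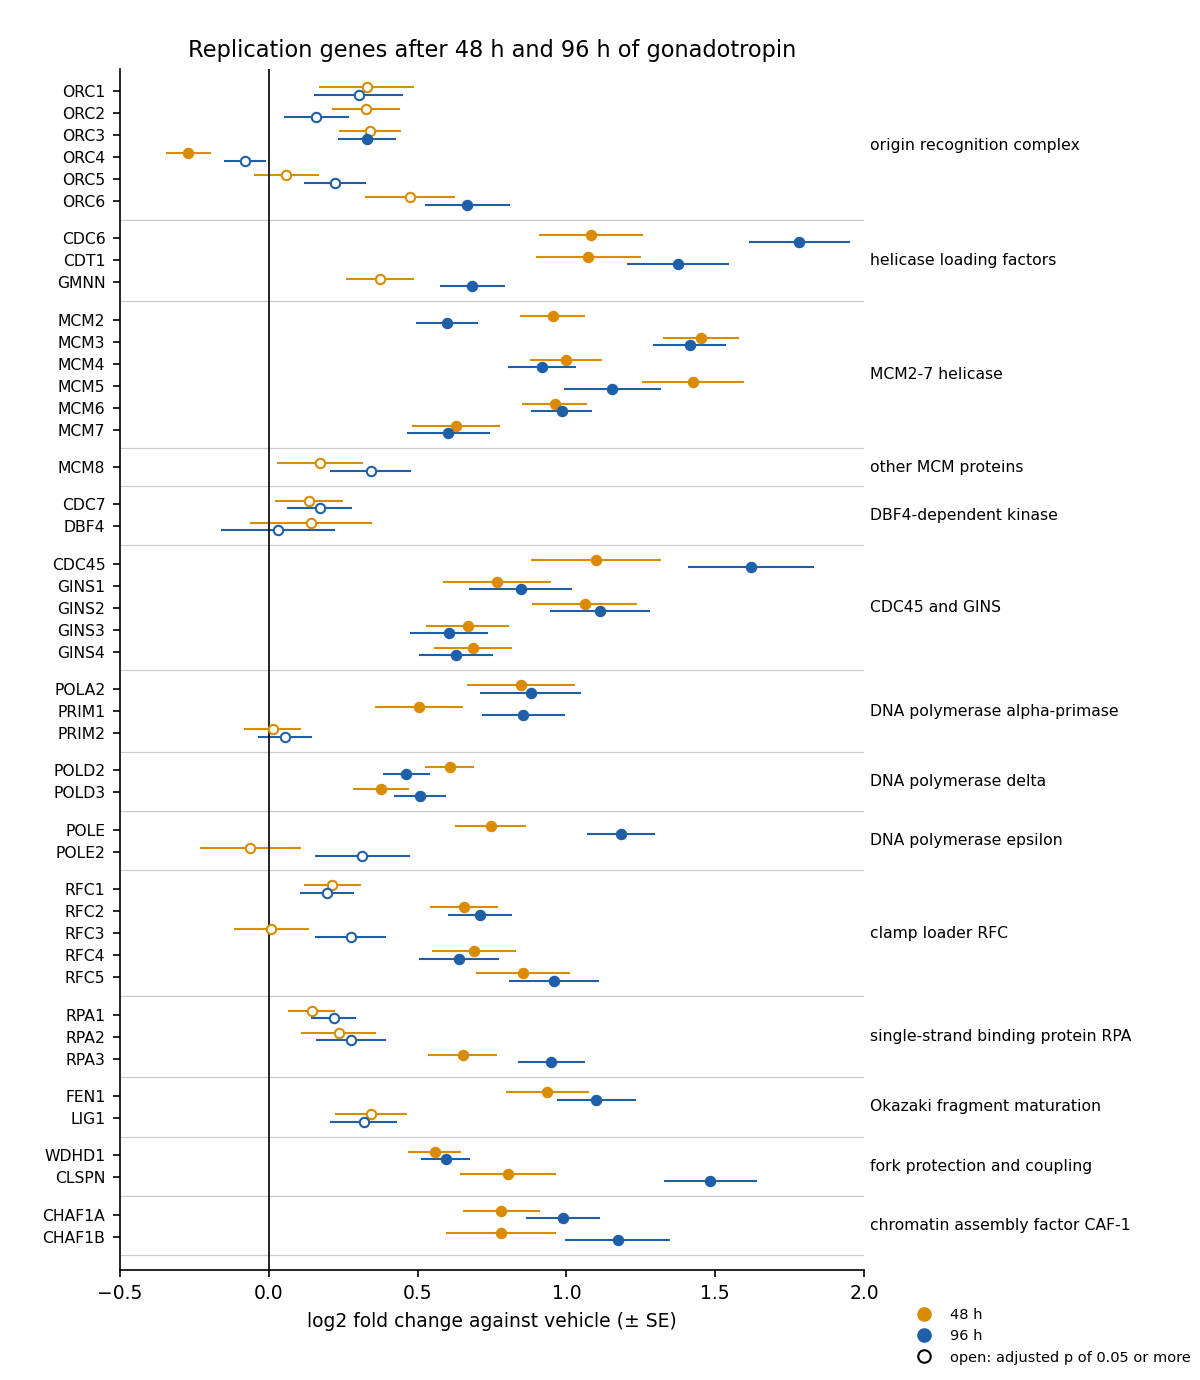
Log2 fold change against vehicle (x axis, with SE) of the 44 replication genes, grouped by complex on the y axis, at 48 h (orange) and 96 h (blue). Filled points passed an edgeR adjusted p of 0.05: 28 at 48 h, of which ORC4 alone lies below 0, and 30 at 96 h.

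The origin recognition complex, whose 6 subunits mark origins and take part in loading the helicase, was higher by edgeR's quasi-likelihood test in 0 of 6 subunits at 48 h, where 4 had an unadjusted p under 0.05 in either direction, and in 2 of 6 at 96 h. At 48 h DESeq2 called 3 higher (ORC2, ORC3 and ORC6, DESeq2 adjusted p = 0.0443, 0.0118 and 0.0183), edgeR's exact test 2 (ORC2 and ORC3) and limma voom 0. ORC6 measured 17.3, 14.4 and 15.4 CPM in the vehicle animals, 26.6, 19.7 and 19.2 CPM at 48 h and 22, 26.6, 26.6 and 24.6 CPM at 96 h. Its treated animals all exceeded the vehicle animals. The log2 fold change of ORC6 was 0.48 ± 0.15 at 48 h (edgeR adjusted p = 0.064) and 0.67 ± 0.14 at 96 h (edgeR adjusted p = 0.0111), so the later change passed that test.

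ORC4 was the member called lower, with 119, 128 and 119 CPM in vehicle, 103, 97.7 and 104 CPM at 48 h and 112, 116, 124 and 111 CPM at 96 h. The 48 h animals lay below all vehicle animals, and the 96 h animals overlapped them. Its log2 fold change at 48 h was -0.27 ± 0.08 (edgeR adjusted p = 0.039). The call was lost without any 1 of the 6 vehicle and 48 h animals, with edgeR adjusted p from 0.0713 to 0.133. ORC3 rose at 96 h by 0.33 ± 0.10 (edgeR adjusted p = 0.0397), and lost that call without TP07, TP09, TP11, TP15, TP16 or TP17 (edgeR adjusted p from 0.0569 to 0.102). ORC1, ORC2 and ORC5 did not pass edgeR's quasi-likelihood test at either time, with log2 fold changes between 0.06 and 0.33.

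CDC6, CDT1 and geminin were all higher at 96 h, and CDC6 had the highest log2 fold change of the 44 members at that time. CDC6, the ATPase that joins the origin recognition complex to recruit MCM2-7, measured 8.55, 7.35 and 10.6 CPM in vehicle, 19.6, 15.2 and 21.2 CPM at 48 h and 26.7, 30.2, 29.5 and 35.1 CPM at 96 h. The 3 groups did not overlap, and rose in the order vehicle, 48 h, 96 h. Against vehicle CDC6 rose by 1.08 ± 0.17 at 48 h (edgeR adjusted p = 0.00354) and by 1.78 ± 0.17 at 96 h (edgeR adjusted p = 0.000219). CDT1, its partner in loading, had 5.61, 5.63 and 7.56 CPM in vehicle, 12.9, 10.9 and 15.8 CPM at 48 h and 15.8, 17, 16.4 and 15.8 CPM at 96 h. Both treated groups of CDT1 cleared vehicle while overlapping each other, with changes of 1.07 ± 0.18 and 1.38 ± 0.17 (edgeR adjusted p = 0.00396 and 0.000698). Geminin (GMNN), which binds CDT1 and blocks relicensing, rose at 96 h by 0.68 ± 0.11 (edgeR adjusted p = 0.00261), and its 48 h value of 0.37 ± 0.11 did not pass (edgeR adjusted p = 0.057) but was called by DESeq2 (DESeq2 adjusted p = 0.0099).

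The MCM2-7 helicase, the ring that unwinds the parental strands, was higher in 6 of 6 subunits at both times, with a median log2 fold change of 0.98 at 48 h and 0.95 at 96 h. Its summed level went from 298.5 to 368.4 CPM in vehicle to 583.2 to 765.7 CPM at 48 h and 591.4 to 678.9 CPM at 96 h. MCM3 changed most at 48 h among all 44 members. MCM3 measured 45.2, 42.4 and 54.8 CPM in vehicle, 145, 111 and 134 CPM at 48 h and 116, 131, 120.2 and 139 CPM at 96 h. Treated animals stood far above vehicle and mixed with each other. The log2 fold change of MCM3 was 1.45 ± 0.13 at 48 h and 1.42 ± 0.12 at 96 h (edgeR adjusted p = 0.000338 and 0.000147).

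MCM5 had 29.6, 26.7 and 34.9 CPM in vehicle, 103, 64.4 and 78.4 CPM at 48 h and 59.8, 76.2, 62.7 and 72.2 CPM at 96 h. TP08 was the highest animal for MCM5, and no treated animal reached down to vehicle. It rose by 1.43 ± 0.17 and 1.15 ± 0.16 (edgeR adjusted p = 0.00097 and 0.00137). MCM4 stood at 65.3, 60 and 80.4 CPM in vehicle, 147, 119 and 145 CPM at 48 h and 120.4, 135, 128 and 135 CPM at 96 h. MCM6 stood at 53.4, 48.5 and 59 CPM, 117, 94.2 and 102 CPM and 96.4, 115, 106 and 107 CPM in the same groups. For MCM4 and MCM6 the treated groups overlapped each other and neither overlapped vehicle. MCM4 rose by 1.00 ± 0.12 and 0.92 ± 0.11, and MCM6 by 0.96 ± 0.11 and 0.98 ± 0.10 (edgeR adjusted p = 0.00097, 0.000707, 0.00079 and 0.000305 in that order).

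MCM2 measured 63.9, 54.7 and 60.8 CPM in vehicle, 122, 101 and 125 CPM at 48 h and 97.3, 94.9, 79.1 and 91.4 CPM at 96 h. All 96 h animals lay between the vehicle and the 48 h animals. MCM2 rose by 0.95 ± 0.11 at 48 h and 0.60 ± 0.10 at 96 h (edgeR adjusted p = 0.000842 and 0.00407). MCM7, the subunit with the highest level per exon length in vehicle, measured 80.2, 66.2 and 78.4 CPM in vehicle, 133, 92.9 and 122 CPM at 48 h and 102, 126, 100.4 and 127 CPM at 96 h. Its treated animals were all above vehicle. The change was 0.63 ± 0.15 at 48 h and 0.60 ± 0.14 at 96 h (edgeR adjusted p = 0.0192 and 0.0156). MCM7 lost its 48 h call without TP09, TP08 or TP12 (edgeR adjusted p from 0.0625 to 0.0836) and its 96 h call without TP09 (edgeR adjusted p = 0.0584).

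The proteins of these 6 genes form 1 ring in equal numbers, so their levels were also compared per kilobase of merged exon. In vehicle animals the subunit means ran from 11.7 CPM per kb for MCM5 to 24.6 CPM per kb for MCM7. The ratio of the highest to the lowest subunit was 2.12 ± 0.198 (SD, n = 3) in vehicle, 1.43 ± 0.016 (SD, n = 3) at 48 h and 1.68 ± 0.0875 (SD, n = 4) at 96 h. The lowest vehicle ratio was 1.93 and the highest treated ratio 1.76, so the groups did not overlap. This ratio was chosen after the values were seen, and no test is given for it.

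**Figure D2:**
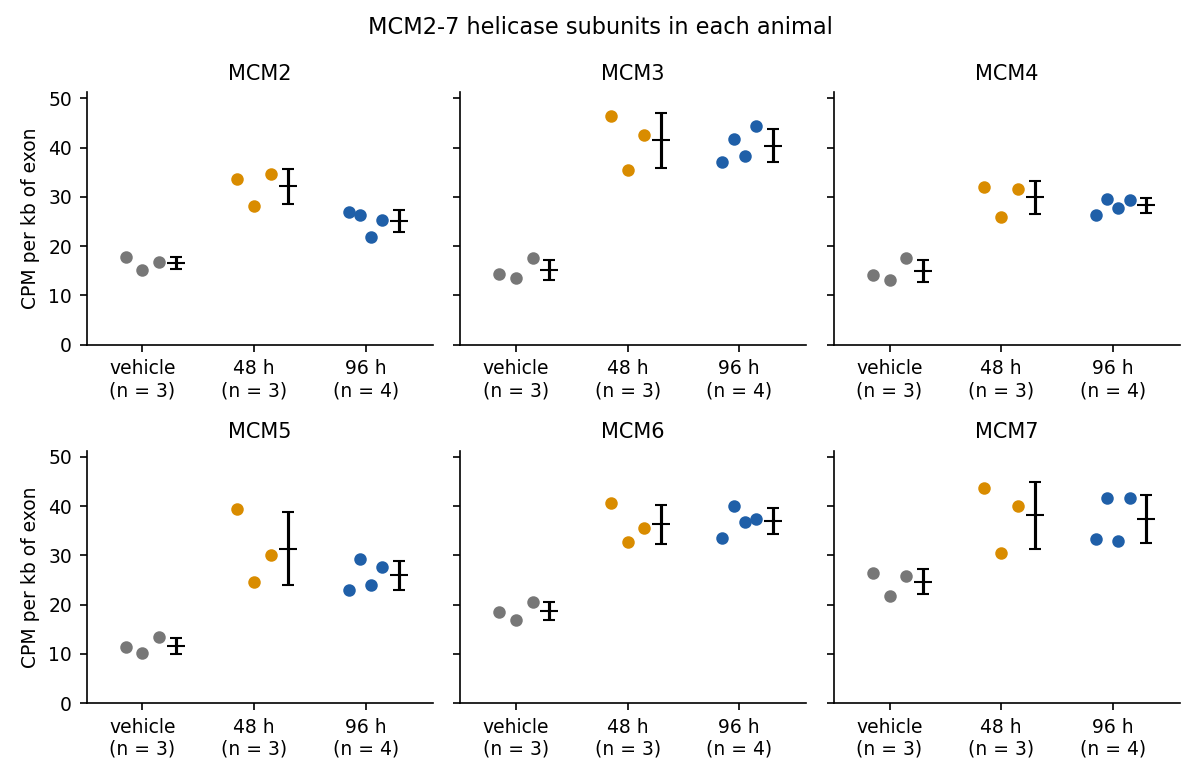
Level of each MCM2-7 subunit in CPM per kb of exon (y axis, from 0) in every animal (points) by group (x axis), with the mean and SD (black). Treated animals lie above all vehicle animals in every panel, and only in MCM2 do the 96 h animals all lie below the 48 h animals.

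MCM8, which acts in recombination and is no part of the MCM2-7 ring, measured 42.8, 35.6 and 39.2 CPM in vehicle, 48.3, 38.5 and 45.6 CPM at 48 h and 40.8, 60.6, 48.2 and 49.1 CPM at 96 h. The groups overlapped, and neither 0.17 ± 0.14 at 48 h nor 0.34 ± 0.14 at 96 h passed (edgeR adjusted p = 0.475 and 0.103). CDC7, the kinase that phosphorylates loaded MCM2-7, stood at 91.8, 71.4 and 83.9 CPM in vehicle, 92.2, 82.2 and 97.1 CPM at 48 h and 82.4, 103, 91.6 and 93.7 CPM at 96 h. DBF4, its activating subunit, stood at 43.9, 33.7 and 40.3 CPM in vehicle, 51.8, 30.6 and 47.6 CPM at 48 h and 31.8, 44.1, 36.9 and 47.8 CPM at 96 h. Both genes of the kinase overlapped vehicle at both times. The log2 fold changes of CDC7 were 0.14 ± 0.12 and 0.17 ± 0.11, and those of DBF4 0.14 ± 0.20 and 0.03 ± 0.19; the smallest edgeR adjusted p of the 4 was 0.29. DESeq2, edgeR's exact test and limma voom also called 0 of the 2, and 0 had an unadjusted p under 0.05.

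CDC45 and the GINS subunits, which complete the active helicase, were higher in 5 of 5 at both times. CDC45 measured 5.51, 3.95 and 6.91 CPM in vehicle, 12, 10.3 and 12.8 CPM at 48 h and 13, 19.6, 17.5 and 17.2 CPM at 96 h. The 3 groups were apart, with TP15 the lowest of the 96 h animals. CDC45 rose by 1.10 ± 0.22 at 48 h and 1.62 ± 0.21 at 96 h (edgeR adjusted p = 0.00924 and 0.000949). GINS2 had 10.2, 8.1 and 11.6 CPM in vehicle, 22.4, 17.2 and 22.9 CPM at 48 h and 21.5, 19.6, 19.6 and 25.5 CPM at 96 h. Its treated groups overlapped each other above vehicle, with changes of 1.06 ± 0.18 and 1.11 ± 0.17 (edgeR adjusted p = 0.00401 and 0.00199). GINS1, GINS3 and GINS4 rose by 0.67 to 0.77 at 48 h and by 0.61 to 0.85 at 96 h. The 48 h call of GINS1 was lost without TP09, TP08 or TP12 (edgeR adjusted p from 0.0503 to 0.0809), and that of GINS3 without TP08 (edgeR adjusted p = 0.051).

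DNA polymerase alpha-primase lays the RNA-DNA primers that start each strand, and 2 of its 3 measured subunits were higher at both times. PRIM1, the catalytic primase, measured 12.2, 11.2 and 16.4 CPM in vehicle, 18.6, 18.4 and 19.6 CPM at 48 h and 24.6, 22.9, 25.8 and 22.8 CPM at 96 h. Groups were stepped without overlap. PRIM1 rose by 0.50 ± 0.15 at 48 h and 0.85 ± 0.14 at 96 h (edgeR adjusted p = 0.0466 and 0.00298), and the 48 h call was lost without TP07, TP09, TP08, TP10 or TP12 (edgeR adjusted p from 0.0775 to 0.15). The accessory subunit POLA2 had 19.2, 15.5 and 26.6 CPM in vehicle, 37.9, 31.5 and 41 CPM at 48 h and 34.1, 39.8, 40.7 and 35.9 CPM at 96 h. Its treated animals were above vehicle and changed by 0.85 ± 0.18 and 0.88 ± 0.17 (edgeR adjusted p = 0.012 and 0.00708). PRIM2, the other primase subunit, overlapped vehicle at both times, at 0.01 ± 0.10 and 0.06 ± 0.09 (edgeR adjusted p = 0.946 and 0.696). Per kb of exon, PRIM1 stood at 0.56 ± 0.128 (SD, n = 3) of PRIM2 in vehicle, 0.786 ± 0.032 (SD, n = 3) at 48 h and 0.981 ± 0.143 (SD, n = 4) at 96 h, a ratio chosen after the values were seen and given with no test.

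Both measured subunits of polymerase delta, the lagging-strand enzyme, were higher at both times. POLD2 measured 39.3, 35.7 and 36.5 CPM in vehicle, 57.5, 57.3 and 55.2 CPM at 48 h and 54, 50.5, 48.5 and 52 CPM at 96 h. As with MCM2, the 96 h animals of POLD2 lay between vehicle and the 48 h animals. It rose by 0.61 ± 0.08 and 0.46 ± 0.08 (edgeR adjusted p = 0.00147 and 0.00345). POLD3 had 37.6, 35.1 and 37.2 CPM in vehicle, 47.4, 46.9 and 48.5 CPM at 48 h and 49.1, 56.5, 47.4 and 55.3 CPM at 96 h. POLD3 rose by 0.38 ± 0.09 at 48 h and 0.51 ± 0.09 at 96 h (edgeR adjusted p = 0.0234 and 0.00397), and lost the 48 h call without TP07, TP09, TP11, TP08 or TP12 (edgeR adjusted p from 0.0511 to 0.0842).

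The catalytic and the second subunit of polymerase epsilon, the leading-strand enzyme, gave different calls. POLE measured 32.1, 33.5 and 40.3 CPM in vehicle, 61.5, 55.7 and 60.4 CPM at 48 h and 67.6, 86.1, 86.3 and 80.4 CPM at 96 h. Its 3 groups were apart, and it rose by 0.75 ± 0.12 and 1.18 ± 0.11 (edgeR adjusted p = 0.00329 and 0.000219). POLE2 had 34.1, 28.3 and 30.2 CPM in vehicle, 34.2, 26 and 28.6 CPM at 48 h and 40.4, 39.9, 45.2 and 28.1 CPM at 96 h, all groups overlapping. Its values of -0.06 ± 0.17 and 0.31 ± 0.16 did not pass (edgeR adjusted p = 0.845 and 0.19), and without TP18, its lowest 96 h animal, the 96 h value was 0.44 (edgeR adjusted p = 0.0416). No test of the difference between POLE and POLE2 is given.

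Of the clamp loader RFC, which opens the PCNA ring and places it on primed DNA, 3 of 5 subunits were higher at both times. RFC2 measured 18.3, 16.1 and 16.4 CPM in vehicle, 26.6, 28 and 25.3 CPM at 48 h and 30.4, 25.9, 29.1 and 25.3 CPM at 96 h. RFC5 measured 22.7, 20.3 and 24.7 CPM in vehicle, 49.4, 34.1 and 39 CPM at 48 h and 35.2, 46, 46.6 and 47.6 CPM at 96 h. Both cleared vehicle in every treated animal, and TP15 was the lowest of the 96 h animals for RFC5. RFC2 rose by 0.66 ± 0.11 and 0.71 ± 0.11 (edgeR adjusted p = 0.00474 and 0.00198), and RFC5 by 0.85 ± 0.16 and 0.96 ± 0.15 (edgeR adjusted p = 0.00642 and 0.00244). RFC4 rose by 0.69 and 0.64. RFC1, the large subunit, with the highest vehicle level of the 5 at 28.8 CPM per kb, did not pass at 0.21 and 0.20, nor did RFC3 at 0.01 and 0.28.

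Of the single-strand binding protein RPA, the smallest subunit passed edgeR's test at both times. RPA3 measured 26.9, 32.9 and 30 CPM in vehicle, 46.8, 43.8 and 50.2 CPM at 48 h and 55.2, 59.5, 65.6 and 50.7 CPM at 96 h. The groups were stepped without overlap, and RPA3 rose by 0.65 ± 0.12 and 0.95 ± 0.11 (edgeR adjusted p = 0.00569 and 0.000541). RPA1, the large DNA-binding subunit, had 102, 97.2 and 109 CPM in vehicle, 107, 112 and 122 CPM at 48 h and 120.4, 114, 124 and 119 CPM at 96 h. Its 96 h animals were above vehicle, but 0.22 ± 0.07 did not pass (edgeR adjusted p = 0.0671), nor did 0.14 ± 0.08 at 48 h (edgeR adjusted p = 0.269). RPA2 stood at 0.23 ± 0.13 and 0.28 ± 0.12 (edgeR adjusted p = 0.254 and 0.127). RPA1 and RPA2 had the highest vehicle levels per kb but for the PCNA locus, at 30.1 and 32.1 CPM per kb, beside 16.4 CPM per kb for RPA3.

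FEN1, the nuclease that trims the flaps of Okazaki fragments, measured 16.6, 16.3 and 20.4 CPM in vehicle, 34, 29.3 and 38.6 CPM at 48 h and 33, 41.9, 39.2 and 38.4 CPM at 96 h. It rose by 0.94 ± 0.14 and 1.10 ± 0.13 (edgeR adjusted p = 0.00226 and 0.000594), with all treated animals above vehicle. LIG1, the ligase that seals the same fragments, had 42.7, 39.5 and 33.8 CPM in vehicle, 53.5, 43.9 and 49.7 CPM at 48 h and 51, 49.2, 41.9 and 50.6 CPM at 96 h. Its 48 h animals were above vehicle and its 96 h animals overlapped it, and neither 0.34 ± 0.12 nor 0.32 ± 0.11 passed (edgeR adjusted p = 0.0887 and 0.0746).

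Claspin (CLSPN), which links the replication fork to checkpoint signalling, measured 10.2, 12 and 14.6 CPM in vehicle, 22, 17.6 and 24.8 CPM at 48 h and 30.3, 36.2, 35.4 and 35.7 CPM at 96 h. Its 3 groups did not overlap. CLSPN rose by 0.80 ± 0.16 at 48 h and 1.48 ± 0.16 at 96 h (edgeR adjusted p = 0.00957 and 0.000313). WDHD1, the AND-1 protein that couples the helicase to polymerase alpha, had 60.2, 56.6 and 61.7 CPM in vehicle, 91, 78.8 and 92.8 CPM at 48 h and 86.3, 93.5, 85.7 and 93.7 CPM at 96 h. WDHD1 rose at both times, by 0.56 ± 0.09 and 0.59 ± 0.08 (edgeR adjusted p = 0.00315 and 0.00135).

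The chromatin assembly factor CAF-1 places histones H3 and H4 behind the fork. CHAF1A, its large subunit, measured 15.3, 14.2 and 18.4 CPM in vehicle, 28.4, 23.8 and 30.2 CPM at 48 h and 33.9, 31.9, 29.7 and 31.5 CPM at 96 h. CHAF1B measured 4.43, 4.39 and 6.43 CPM in vehicle, 8.73, 8.01 and 9.45 CPM at 48 h and 12.4, 11.3, 11.2 and 10.9 CPM at 96 h, and at 1.14 CPM per kb it was the least abundant member in vehicle. Both subunits were above vehicle in every treated animal. CHAF1A rose by 0.78 ± 0.13 and 0.99 ± 0.12 (edgeR adjusted p = 0.0041 and 0.000731), and CHAF1B by 0.78 ± 0.18 and 1.17 ± 0.18 (edgeR adjusted p = 0.0199 and 0.00199). CHAF1B lost its 48 h call without TP07, TP09, TP08 or TP12 (edgeR adjusted p from 0.0635 to 0.078).

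The 4 genes at joined loci are the sliding clamp PCNA, the polymerase alpha catalytic subunit POLA1, the fork protection protein TIMELESS and the initiation factor MCM10. Their reads cannot be divided from those of the neighbour in the same locus (TMEM230, LOC106995176, MIP and OPTN in that order). The locus of PCNA and TMEM230 rose by 0.82 ± 0.11 at 48 h and 1.01 ± 0.10 at 96 h (edgeR adjusted p = 0.00134 and 0.000302). That of POLA1 rose by 0.51 ± 0.12 and 0.74 ± 0.11 (edgeR adjusted p = 0.0164 and 0.00177), and that of TIMELESS by 0.92 ± 0.13 and 1.09 ± 0.13 (edgeR adjusted p = 0.00198 and 0.000513). The MCM10 locus did not pass, at 0.11 ± 0.11 and 0.23 ± 0.10 (edgeR adjusted p = 0.529 and 0.143).

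Between the treated groups, 0 of 44 members were called higher and 0 lower at 96 h against 48 h by edgeR's quasi-likelihood test, where 0.817% of all loci were called higher and 0.25% lower. At an unadjusted p under 0.05 that test gave 12 members in either direction, and the share of all loci at that threshold was not taken. DESeq2 called 3 higher (CDC6, CLSPN and POLE) and 1 lower (MCM2), edgeR's exact test 2 higher (CDC6 and CLSPN), and limma voom 1 higher (CLSPN). The shares of all loci called by these tools were not taken. The 96 h animals lay above all 48 h animals in 9 members and below all of them in 2, MCM2 and POLD2, beside 7.93% and 8.61% of all loci. The highest log2 differences were 0.70 ± 0.16 for CDC6 (edgeR adjusted p = 0.0691) and 0.68 ± 0.15 for CLSPN (edgeR adjusted p = 0.0624), and the lowest was -0.35 ± 0.10 for MCM2 (edgeR adjusted p = 0.113). In 8 members all 3 groups were apart in the order vehicle, 48 h, 96 h: CDC6, GMNN, CDC45, PRIM1, POLE, RPA3, CLSPN and CHAF1B. The share of all loci with that order was not taken. All 96 h animals were 14 months old, and with age class as a block the edgeR fit called CDC6 higher at 96 h than at 48 h, by 0.98 (edgeR adjusted p = 0.031). TP10 was the only 48 h animal in their age class.

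**Figure D3:**
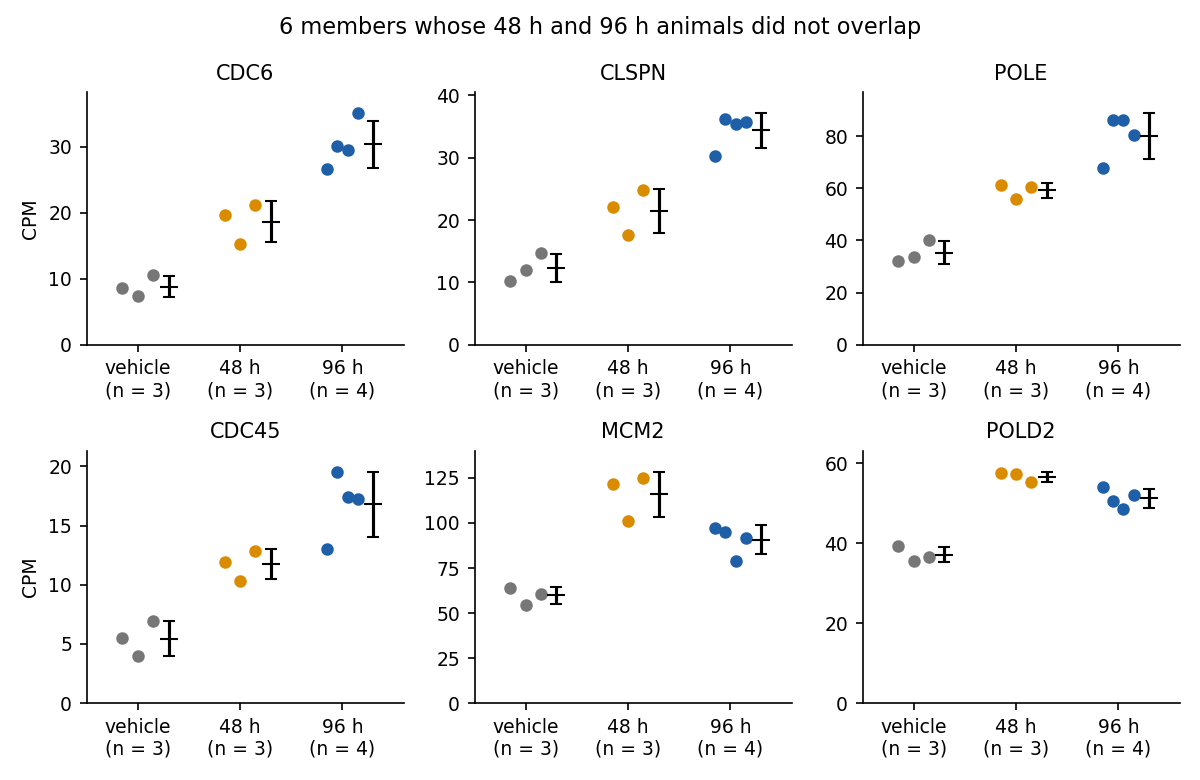
Level in CPM (y axis, from 0) of 6 of the 11 members whose 48 h and 96 h animals did not overlap, chosen after the values were seen, in every animal (points) by group (x axis) with the mean and SD (black). CDC6, CLSPN, POLE and CDC45 step upward over the groups, and MCM2 and POLD2 are highest at 48 h.

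Levels of these partners were also set against each other per kb of exon, again for ratios chosen after the values were seen and given with no test. CDC6 stood at 0.179 ± 0.01 (SD, n = 3) of MCM3 in vehicle, 0.139 ± 0.0126 (SD, n = 3) at 48 h and 0.231 ± 0.0107 (SD, n = 4) at 96 h. The 48 h animals were thus lowest and the 96 h animals highest, with no overlap of the groups. CDT1 stood at 0.208 ± 0.029 (SD, n = 3) of GMNN in vehicle, 0.338 ± 0.0497 (SD, n = 3) at 48 h and 0.34 ± 0.0379 (SD, n = 4) at 96 h. Every treated animal had a higher CDT1 to GMNN ratio than every vehicle animal.

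The 13 members that passed edgeR's quasi-likelihood test at neither time were ORC1, ORC2, ORC5, MCM8, CDC7, DBF4, PRIM2, POLE2, RFC1, RFC3, RPA1, RPA2 and LIG1. Their log2 fold changes spanned -0.06 to 0.34 (48 h) and 0.03 to 0.34 (96 h). DESeq2 called ORC2 and LIG1 of them higher at 48 h and LIG1 and RPA1 at 96 h. Their median vehicle level was 11.2 CPM per kb, beside 6.31 CPM per kb for the 27 members called at both times. The vehicle values also entered the calls that split these sets, so the medians are description only. The exon models of POLD3 and RFC3 are long, 17.9 and 13.8 kb, which lowers their level per kb.

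TP09 was the lowest vehicle animal in 33 of 44 members and TP10 the lowest 48 h animal in 38, and both were 14 months old. Set beside the vehicle animal nearest in age, TP10 was above TP09 in 37 members (median log2 ratio 0.49) and TP12 above TP11 in 42 (0.59). TP08, aged 22 months, was above TP07, aged 24 months, in 43 (0.66). All 4 of the 96 h animals were above TP09, the vehicle animal of their age, in 40 members. The labels pair no animals, and the share of all loci was not taken for these counts.

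Among 28 measured other replication factors, 8 were higher at 48 h and 13 at 96 h, beside 14.8% and 17.2% of single-symbol loci. At 48 h the smallest p-values were those of RNASEH2A, a subunit of the nuclease that removes ribonucleotides, at 0.95 ± 0.13, the PCNA unloader ATAD5 at 0.69 ± 0.13, the initiation factor TOPBP1 at 0.54 ± 0.10 and the histone chaperone subunit SSRP1 at 0.43 ± 0.09. At 96 h they were RNASEH2A at 1.41 ± 0.12, ATAD5 at 1.18 ± 0.12, topoisomerase TOP2A at 2.41 ± 0.32 and DTL, which directs CDT1 to degradation, at 1.06 ± 0.16. TOP2A was the 1 factor of the list that edgeR's quasi-likelihood test called higher at 96 h than at 48 h, by 1.73 ± 0.31 (edgeR adjusted p = 0.0347). Between the treated groups that test called 1.11% of single-symbol loci higher. In that comparison DESeq2 called 7 higher (ATAD5, DSCC1, RECQL4, RIF1, RNASEH2A, TICRR and TOP2A). The exact test of edgeR called 2 (TICRR and TOP2A) and limma voom 1 (TOP2A).

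Of 16 measured regulators of entry into S phase, 8 were higher at 48 h and 10 at 96 h. The shares of single-symbol loci called higher were 14.8% and 17.2%. CDK2 (0.58 ± 0.11), RBL1 (0.40 ± 0.08), RB1 (0.70 ± 0.15) and E2F3 (0.83 ± 0.20) had the smallest p-values at 48 h. RBL1 (0.67 ± 0.08), E2F7 (2.26 ± 0.27), CCNE2 (1.69 ± 0.20) and E2F2 (1.65 ± 0.23) had them at 96 h. The repressor E2F7 was the 1 regulator that edgeR's quasi-likelihood test called higher at 96 h than at 48 h, by 1.45 ± 0.26 (edgeR adjusted p = 0.0287). Between the treated groups that test called 1.11% of single-symbol loci higher. In that comparison DESeq2 called 5 higher (CCNE2, E2F2, E2F7, E2F8 and RBL1) and 1 lower (E2F5). The exact test of edgeR called 4 higher and limma voom 2. CCNE1, the cyclin of S phase entry, stood at 0.66 ± 0.18 at 48 h, 0.89 ± 0.17 at 96 h and 0.23 ± 0.17 between the treated groups (edgeR adjusted p = 0.0344, 0.00656 and 0.444). E2F1 shared a locus with PXMP4 and is not counted.

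Of 8 measured mitotic markers, 0 passed edgeR's quasi-likelihood test at 48 h, 7 were higher at 96 h, and 5 were higher at 96 h than at 48 h. The shares of single-symbol loci called higher in these comparisons were 14.8%, 17.2% and 1.11%. At 48 h, 2 of the 8 markers had an unadjusted p under 0.05, DESeq2 and edgeR's exact test each called 1 (MKI67), and limma voom called 0. Between the treated groups those 3 tools each called 7 higher. TOP2A is counted in this list and among the other replication factors, and without it edgeR called 0, 6 and 4 of 7. MKI67, a protein of cycling cells, measured 14.6, 21.7 and 33.2 CPM in vehicle, 31.9, 42.6 and 63.6 CPM at 48 h and 146, 155, 154 and 109 CPM at 96 h. Its log2 fold change was 0.99 ± 0.31 at 48 h (edgeR adjusted p = 0.0699), 2.61 ± 0.32 at 96 h (edgeR adjusted p = 0.000992) and 1.61 ± 0.30 between the treated groups (edgeR adjusted p = 0.0397). The mitotic kinase CDK1 gave 0.70 ± 0.30 at 48 h (edgeR adjusted p = 0.159) and 2.33 ± 0.30 at 96 h (edgeR adjusted p = 0.00111). At 96 h the kinetochore protein CENPF rose by 1.49 ± 0.16, and between the treated groups CENPF by 1.29 ± 0.16, CCNB2 by 1.42 ± 0.26 and CDK1 by 1.64 ± 0.29 (edgeR adjusted p = 0.0153, 0.0304 and 0.0317). In sum the mitotic markers stood at 239 to 383.1 CPM in vehicle, 320.3 to 530.4 CPM at 48 h and 984.5 to 1192 CPM at 96 h. TOP2A made up 23% to 31.4% of that sum in vehicle and 39% to 39.9% at 96 h. Without TOP2A the sums were 175.6 to 262.7, 219.9 to 344.7 and 600.6 to 716.4 CPM, an alternative added after seeing the data. Whether the time courses of replication and mitotic genes differ was not tested as such.

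**Figure D4:**
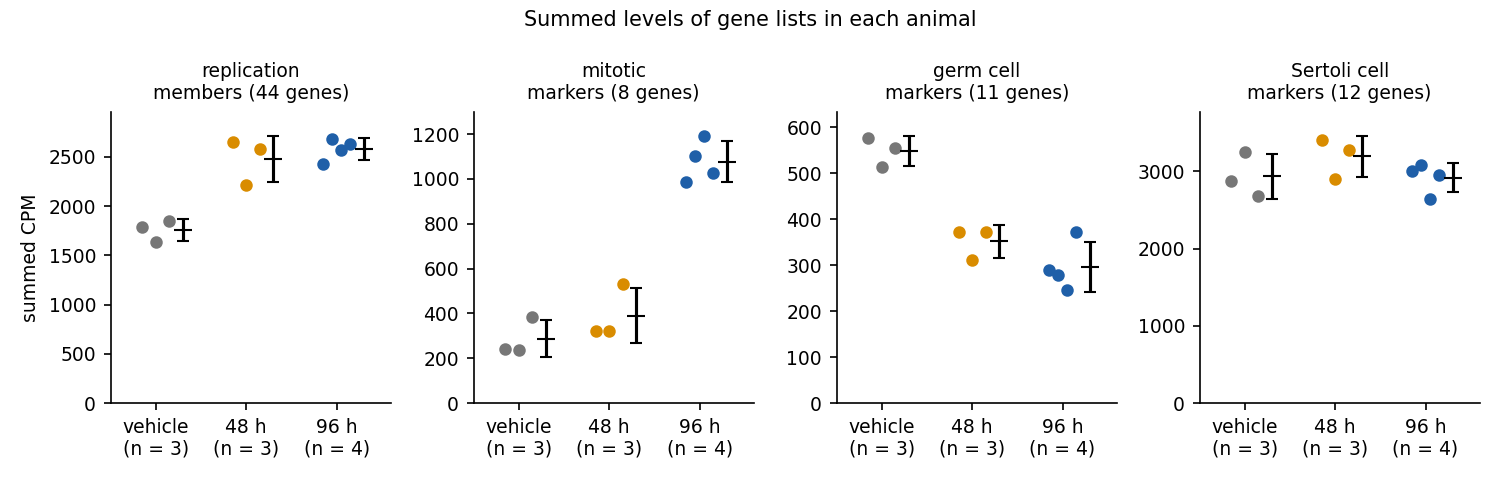
Summed CPM (y axis, from 0) of the 44 replication members and of 3 marker lists in every animal (points) by group (x axis), with the mean and SD (black). The members are higher in both treated groups, the mitotic markers stand apart at 96 h, and the germ cell markers are lower in both. The sums of the Sertoli cell markers overlap, though at 96 h edgeR called CLDN11, DHH, INHA and SOX9 higher and CLU lower.

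Marker lists of the cell types of the testis differed in how many genes passed edgeR's test. Among single-symbol loci, 14.8% were called higher and 3.21% lower at 48 h, and 17.2% and 6.66% at 96 h. Sertoli cell markers, 12 of 12 measured, were higher in 4 at 48 h and higher in 4 and lower in 1 at 96 h, and summed to 2684 to 3256 CPM in vehicle, 2895 to 3408 CPM at 48 h and 2645 to 3085 CPM at 96 h. Germ cell markers, 11 of 12 measured, were lower in 2 at 48 h and in 9 at 96 h, with sums of 512.8 to 577.3, 310.7 to 372.6 and 245.6 to 372.7 CPM. Leydig cell markers, 7 of 8 measured, were higher in 6 and 5, with sums of 300.3 to 451.5, 1746 to 2130 and 1346 to 1673 CPM. Peritubular and smooth muscle markers, 6 of 6 measured, were higher in 3 and 4 and summed to 563.4 to 632.9, 911.3 to 1236 and 792.8 to 1521 CPM. Macrophage markers, 6 of 6 measured, were higher in 0 and 2, with sums of 77.7 to 155.8, 113.8 to 179.7 and 144.3 to 273.1 CPM. At 48 h, 2 of them had an unadjusted p under 0.05, and DESeq2 called 2, edgeR's exact test 1 and limma voom 0. Of 5 endothelial and 2 lymphocyte markers measured, 0 passed at either time by edgeR, DESeq2 or limma voom, and by edgeR 0 had an unadjusted p under 0.05, with sums of 49.02 to 123.5 and 1.32 to 3.39 CPM over all animals. No measured marker was at 0 in any animal. The part of these cell types in the values of the replication genes was not tested.

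A few member symbols named a further locus on the opposite strand: RPA2, POLA2 and MCM8, each assembled as a single exon. That named RPA2 lies on chromosome 1 of the rheMac8 assembly, from 26771677 to 26776522 on the plus strand, and shares 4 bases with the 3' end of RPA2 itself, which runs from 26776519 to 26798237 on the minus strand. It measured 14.2, 18.8 and 21.7 CPM in vehicle, 7.05, 7.4 and 8.67 CPM at 48 h and 6, 5.93, 3.59 and 4.74 CPM at 96 h. All groups were apart, in falling order. It fell, with a log2 fold change of -1.24 ± 0.23 at 48 h and -1.84 ± 0.21 at 96 h (edgeR adjusted p = 0.00602 and 0.000491), while RPA2 did not pass in either direction. The opposite-strand loci named POLA2, which shares 304 bases with the gene, and MCM8, which lies wholly within it, did not pass (edgeR adjusted p from 0.0551 to 0.321). These loci were described after their values were seen, and how the counting treated strand is not given in the sources used here.

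**Figure D5:**
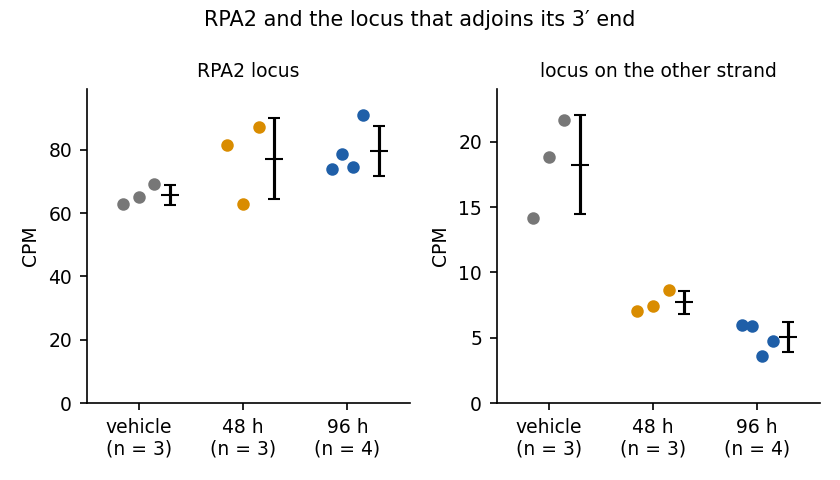
Level in CPM (y axes, from 0, on different scales) of the RPA2 locus and of the opposite-strand locus that adjoins its 3' end, in every animal (points) by group (x axis), with the mean and SD (black). The opposite-strand locus falls from 14.2 to 21.7 CPM in vehicle to 3.59 to 6 CPM at 96 h, while RPA2 lies between 62.8 and 90.9 CPM in all animals.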

How the data were processed

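Right testes of 10 animals were compared as 3 vehicle, 3 treated for 48 h and 4 treated for 96 h, grouped by their titles. The authors deposited whole-number read counts and CPM values per locus, with log2 fold changes and p-values of their own edgeR exact test, and transcript models from which exon lengths were taken. The submitters' processing notes name HTSeq 0.6.1p1 as well as edgeR, the aligners Bowtie2 2.2.8 and TopHat2 2.1.1, the trimmer cutadapt 1.9.1 and the assembler Cufflinks 2.2.1, with the build rheMac8. The counter's strand setting is not given in the sources used here. Each locus of the deposited table is at 1 CPM or more in at least 3 libraries.

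A robust quasi-likelihood model of the counts was fitted to all 10 libraries together (edgeR 4.0.16, R 4.3.3) after TMM scaling, and p-values were adjusted by Benjamini-Hochberg over 26813 loci at 0.05. The edgeR filter on low counts removed 0 loci. All 44 members were at or above 1 CPM in every library. The script was tested on simulated data. DESeq2 1.42.0 and limma 3.58.1 served as alternatives. CPM per kb divides TMM-scaled CPM by merged exon length. Chromosome names were assigned by the symbols each contig shares with a RefSeq gene table. Members and lists were chosen with earlier results of these data known. Values per animal are given for up to 2 members per complex with the smallest p against vehicle, all of MCM2-7 and any member called lower. Of the other lists, up to 4 called genes with the smallest p are named per comparison. Of 8 ratios of levels per kb examined after their values were seen, 4 are described; 24 two-sided exact permutation tests of the 8 gave a smallest adjusted p of 0.114 and support nothing here. Comparisons share control animals, so their calls are not independent. Planned comparisons of promoter and protein sequences were not run because no sequence was at hand.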

Additional observations from a re-analysis of the deposited data

Results flagged for a closer look

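TP15 stood apart from the other 96 h animals in 2 of the 44 members tested. RFC5 of TP15 was at 35.2 CPM, where the other 96 h animals were at 45.98 to 47.57 CPM. CLSPN of TP15 was at 30.26 CPM, where the others were at 35.43 to 36.18 CPM. In both cases the gap to the nearest animal exceeded Dixon's critical value for 4 samples. Chance gives such a gap in about 1 in 20 groups, and 2 of 44 members is near that rate.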

How the results depend on the processing

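The count of members higher at 48 h, 27, was 19 to 32 under the other scalings, filters, tests and thresholds and 21 to 26 without 1 animal, but 10 without both animals over 20 months. The 1 member lower at 48 h became 0 with RLE scaling, the edgeR exact test, the compared groups alone, age class as a block, an adjusted p of 0.01, without both animals over 20 months, and without any 1 animal (0 to 0). At 96 h the count of 30 was 25 to 33 over all alternatives and 28 to 31 without 1 animal, and the count lower was 1 with upper-quartile scaling. Upper-quartile scaling moved the median of all loci by -0.13 at 48 h and -0.15 at 96 h, and that of the members to 0.51 and 0.49. For 96 h against 48 h the count higher was 3 with DESeq2, 2 with the edgeR exact test, 1 with limma voom and 1 with age class as a block, and the count lower was 1 with DESeq2. With that block the members' median was 0.77 at 96 h against vehicle and 0.22 at 96 h against 48 h. In its class of 14 months the 96 h animals stood with TP09 alone from vehicle and TP10 alone from 48 h.

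Of the called members, none reversed: 467 of 532 values at 48 h and 580 of 600 at 96 h, over all alternatives, kept their call, and 10 and 25 members kept it in every alternative. For members not called, direction was less stable: 19 values changed sign at 48 h, 6 at 96 h and 60 for 96 h against 48 h, none of them called, while 15, 5 and 8 became called. The authors' deposited table calls 25 members higher at 48 h, 29 at 96 h and 2 at 96 h against 48 h. Shares of all loci called were not taken for these counts or for the alternatives. Counting the 4 joined loci as members was an alternative chosen after seeing the data. The labels pair no animals. With age class as a block, which sets TP07 with TP08, TP09 with TP10 and TP11 with TP12, edgeR called 28 members higher and 0 lower at 48 h. Group and age overlap in part, since every 96 h animal was 14 months old.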
